A study of Homo sapiens with 9 samples.

Results

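The 10 genes described here encode enzymes of de novo ceramide and sphingomyelin synthesis: SPTLC1, SPTLC2, KDSR, CERS2, CERS5, CERS6, DEGS1, SGMS1, SGMS2 and UGCG. They were listed by name as enzymes of this pathway, out of 26485 genes in the deposited tables, and all 10 were present in both tables and passed the filter on low values. The 9 sequenced libraries hold RNA of MDA-MB-231, a widely used human cell line from a triple-negative breast cancer. The cells stably expressed a nonspecific (NS) shRNA, ASAH1 shRNA #1 or ASAH1 shRNA #2, with 3 libraries each labelled as biological replicates. The study compared each knockdown with NS shRNA to learn what loss of ASAH1, the acid ceramidase, changes in the RNA of these cells. All control libraries carry 1 nonspecific hairpin and serve in both comparisons, each knockdown group carries 1 hairpin sequence, and the replicates are not said to come from separately transduced cultures. The p-values therefore measure the spread between these libraries, which may be technical.

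Ceramide is built at the endoplasmic reticulum. Serine palmitoyltransferase, a complex of SPTLC1 with SPTLC2 or SPTLC3, joins serine to palmitoyl-CoA, KDSR reduces the product to sphinganine, a ceramide synthase attaches a fatty acid, and DEGS1 introduces the double bond that turns dihydroceramide into ceramide. In the Golgi, SGMS1 and SGMS2 convert ceramide into sphingomyelin, while UGCG makes glucosylceramide, the first of the glycosphingolipids. Acid ceramidase acts at the other end of ceramide's life, splitting it in the lysosome into sphingosine and a fatty acid.

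The reads on genes per library ran from 30989598 to 34867548 with NS shRNA, from 23806003 to 39791698 with shRNA #1 and from 35653318 to 49659106 with shRNA #2. The targeted gene ASAH1 had a mean of 4489 ± 45.4 normalized counts (SD, n = 3) with NS shRNA and 1327 ± 51.9 with shRNA #1, and in the table of the other hairpin it had 4852 ± 57.9 with NS shRNA and 783 ± 22.6 with shRNA #2. These are log2 fold changes of -1.76 and -2.63, and the hairpins differed from each other by -0.89 (shRNA #2 to shRNA #1). Among markers of the line, CD44 and VIM were abundant, with at least 25241 and 45149.5 normalized counts in every library, and ESR1 and PGR had at most 2.67 normalized counts in any library. ERBB2, listed for the line as low or absent, held between 1955 and 3677 normalized counts. Of 3 markers of other cell types, PTPRC and ALB had at most 9.03 normalized counts and PECAM1, which was lower with both hairpins, between 42.1 and 108. ERBB2 changed by -0.69 with shRNA #1 and by -0.42 with shRNA #2 on the log2 scale, both past the threshold (adjusted p = 2.73e-06 and 0.000735). VIM fell by 0.27 with shRNA #1 and fell by 0.67 with shRNA #2, and the part of these markers in the results below was not tested.

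Levels per library are given below as CPM, the reads recovered from the deposited values divided by the library's effective (TMM) size and multiplied by 1000000, because this scale is shared by all 9 libraries. Fold changes to NS shRNA are on the log2(normalized count + 1) scale, from limma on the deposited normalized counts of 6 libraries, with the standard error (SE) and a Benjamini-Hochberg adjusted p over all genes tested. Ratios of shRNA #2 to shRNA #1 come from edgeR on the recovered reads of all 9 libraries. A gene is said to have risen or fallen where its adjusted p was below 0.05. As in any RNA of whole cultures, fewer cells of a type and less RNA per cell cannot be told apart.

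With both ASAH1 hairpins the RNA of 3 of the 10 genes fell, SPTLC1, SPTLC2 and DEGS1, which act at the first step and at the desaturation step of the pathway. With shRNA #1, CERS6 also fell and KDSR rose. With shRNA #2, SGMS2 and CERS5 rose. CERS2, SGMS1 and UGCG passed the test in neither comparison with NS shRNA. In all, 5 of the 10 genes were called with shRNA #1 (1 higher, 4 lower), beside 66.1% of the 14341 genes tested (32.8% higher, 33.3% lower). With shRNA #2, 5 of the 10 were called (2 higher, 3 lower), beside 66.9% of 14250 genes (33.5% higher, 33.4% lower). The share of the 10 genes called was thus not above the share of all genes in either comparison. The median of their absolute log2 fold changes came to 0.19 and 0.16, in the order of the hairpins, where all tested genes had 0.37 and 0.40. Both comparisons share the NS shRNA libraries, so their values are set side by side and are not independent of each other. The share of all tested genes that fell with both hairpins was not counted. The 3 genes that did so are therefore not read as a trait of the pathway.

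**Figure D1:**
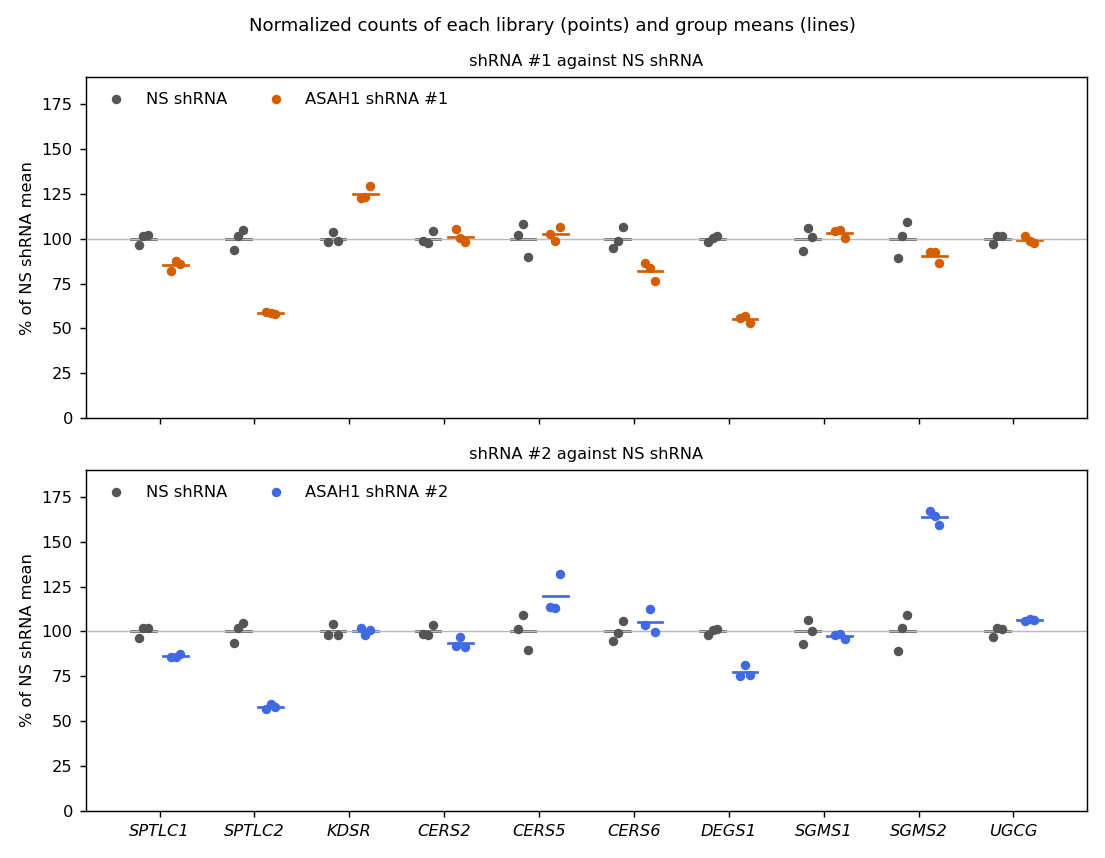
Each point is 1 library's normalized count of a gene as a percentage of the NS shRNA mean in the same table (vertical axis), and short lines are group means of 3 libraries; the upper panel holds shRNA #1 and the lower panel shRNA #2. All knockdown points of SPTLC1, SPTLC2 and DEGS1 lie under the NS shRNA points in both panels, and those of SGMS2 lie above them in the lower panel, by 0.72 on the log2 scale.

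SPTLC1 (chr9:92000087-92115413 in hg38, minus strand, 15 exons in the canonical transcript) encodes the subunit of serine palmitoyltransferase that is common to all forms of the enzyme. Its level was 118, 124 and 124 CPM with NS shRNA, 100.6, 107 and 106 CPM with shRNA #1, and 104, 105 and 106 CPM with shRNA #2. Every knockdown library lay below every NS shRNA library. With shRNA #1 SPTLC1 changed by -0.23 on the log2 scale (SE 0.05, adjusted p = 0.00204), so that its level fell by 14.9%. With shRNA #2 the change was -0.21 (SE 0.05, adjusted p = 0.00391), and the level fell by 13.8%.

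SPTLC2 (chr14:77505997-77616637, minus strand, 12 exons) encodes a catalytic subunit, the partner of SPTLC1 in the form of the enzyme that uses palmitoyl-CoA. It had 66.1, 72.0 and 73.5 CPM with NS shRNA, 42.0, 41.6 and 41.2 CPM with shRNA #1, and 40.0, 41.9 and 40.5 CPM with shRNA #2. The 6 knockdown libraries formed a narrow band well under the controls, and the bands of the hairpins overlapped. SPTLC2 changed by -0.77 on the log2 scale with shRNA #1 (SE 0.06, adjusted p = 2.73e-06) and by -0.78 with shRNA #2 (SE 0.06, adjusted p = 2.03e-06). Its level thus fell by 41.3% with the first hairpin and fell by 41.9% with the second. Between the hairpins the log2 ratio was -0.03 for SPTLC2 (95% confidence interval -0.15 to 0.09) and 0.01 for SPTLC1 (-0.10 to 0.11). Neither subunit differed detectably between them.

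The change of the catalytic subunit was larger than that of its partner. Within each library the log2 ratio of SPTLC2 to SPTLC1, which does not depend on the size factors, averaged -0.79 ± 0.04 (SD, n = 3) with NS shRNA, -1.33 ± 0.06 with shRNA #1 and -1.36 ± 0.04 with shRNA #2. The ratio was lower by 0.53 (SE 0.04) and 0.57 (SE 0.03) in the knockdown groups, with no overlap with NS shRNA. A two-sided exact permutation test gave p = 0.1 for each, the smallest p that 3 against 3 libraries allow, and it gave p = 0.5 between the hairpins.

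DEGS1 (chr1:224175756-224193441, plus strand, 3 exons), the dihydroceramide desaturase, had the lowest log2 fold change of the 10 genes with shRNA #1. Its level was 251, 257 and 258 CPM with NS shRNA, 143, 145 and 136 CPM with shRNA #1, and 191, 208 and 193 CPM with shRNA #2. The 3 groups did not overlap, and shRNA #2 lay between the other groups. DEGS1 fell by 0.86 on the log2 scale with shRNA #1 (SE 0.05, adjusted p = 3.56e-07) and fell by 0.37 with shRNA #2 (SE 0.05, adjusted p = 0.000114). These changes were -45.0% and -22.5% of the control level. The difference between the hairpins was itself past the threshold, with a log2 ratio of shRNA #2 to shRNA #1 of 0.48 (SE 0.05, adjusted p = 4.94e-06). DEGS1 fell further with shRNA #1, and ASAH1 fell further with shRNA #2. The part of the ASAH1 level in the DEGS1 difference was not tested.

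The bases just before the transcription start of these 3 genes, which fell with both hairpins, are printed here because the genes moved in the same direction. They are 250 bases upstream of the RefSeq start in GRCh38.p14, read 5′ to 3′ on the gene's own strand: chr9:92115414-92115663 (minus) for SPTLC1, chr14:77616638-77616887 (minus) for SPTLC2 and chr1:224182990-224183239 (plus) for DEGS1. Capitals mark exact matches to 4 short motifs searched on both strands: the GC box (GGGCGG or CCGCCC), the CCAAT box (CCAAT or ATTGG), the E-box CACGTG and the ETS core (CCGGAA or TTCCGG).
SPTLC1: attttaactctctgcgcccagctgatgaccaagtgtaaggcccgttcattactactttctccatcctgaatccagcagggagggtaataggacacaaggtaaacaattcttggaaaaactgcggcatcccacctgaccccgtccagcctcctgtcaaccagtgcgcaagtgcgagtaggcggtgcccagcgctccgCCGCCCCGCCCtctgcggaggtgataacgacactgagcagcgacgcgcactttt
SPTLC2: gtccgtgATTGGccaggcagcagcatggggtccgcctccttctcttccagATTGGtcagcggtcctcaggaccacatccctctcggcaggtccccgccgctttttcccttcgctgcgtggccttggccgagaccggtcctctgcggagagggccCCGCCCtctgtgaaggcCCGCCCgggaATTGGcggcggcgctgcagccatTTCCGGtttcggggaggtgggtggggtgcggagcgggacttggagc
DEGS1: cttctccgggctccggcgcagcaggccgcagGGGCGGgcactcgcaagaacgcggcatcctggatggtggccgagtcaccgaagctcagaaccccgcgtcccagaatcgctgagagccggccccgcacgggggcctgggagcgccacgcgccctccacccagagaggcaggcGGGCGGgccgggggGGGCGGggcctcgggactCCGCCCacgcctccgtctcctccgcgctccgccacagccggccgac
SPTLC1 had 2 GC boxes in its window, from -54 to -49 and from -49 to -44 counted from the start, which share 1 base. SPTLC2 had 2 GC boxes, 3 CCAAT boxes and 1 ETS core, and none of these overlapped. DEGS1 had 4 GC boxes at this start, which lies inside the gene as GENCODE draws it, and 0 at a further RefSeq start (chr1:224183430-224183679). The G and C content of the windows was 56.4%, 68.4% and 76.8%. A promoter was found in the table for 9 of the 10 genes, all but CERS2, with 12 windows in all, as DEGS1 and SGMS2 have further starts. A GC box was in 9 of the 12 windows, where 42.6% of 35116 RefSeq promoters of the same length had one. Those promoters were not matched to the windows in G and C content, so these shares are not read as an enrichment. All 9 genes with a promoter had a GC box in a window. Among them were KDSR and CERS5, which each rose with 1 hairpin, and SGMS1 and UGCG, which passed in neither comparison. CCAAT boxes were in 32.0% of all promoters, the ETS core in 14.5% and the E-box in 6.3%. These matches describe the letters only.

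KDSR (chr18:63327726-63367228, minus strand, 10 exons) encodes the reductase that follows serine palmitoyltransferase. Its level was 121, 128 and 121 CPM with NS shRNA, 152, 152 and 161 CPM with shRNA #1, and 125, 121 and 124 CPM with shRNA #2. Only the shRNA #1 libraries stood above the controls, while those of shRNA #2 fell among them. KDSR rose by 0.32 on the log2 scale with shRNA #1 (SE 0.05, adjusted p = 0.000233), a level 25.1% higher. With shRNA #2 the log2 fold change was 0.00 (95% confidence interval -0.11 to 0.12), and the hairpins differed by -0.33 (SE 0.05, adjusted p = 8.29e-05).

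The 3 ceramide synthases among the genes prefer different fatty acids. CERS2 (chr1:150960583-150975003, minus strand, 11 exons) makes ceramides with very long acyl chains, whereas CERS5 (chr12:50129289-50167533, minus strand, 10 exons) and CERS6 (chr2:168456249-168775134, plus strand, 10 exons) mostly use palmitoyl-CoA. CERS2 had 341, 337 and 357 CPM with NS shRNA, 365, 347 and 341 CPM with shRNA #1, and 316, 334 and 314 CPM with shRNA #2. The shRNA #1 libraries overlapped the controls and the shRNA #2 libraries lay just under them, but neither comparison with NS shRNA passed the test. The log2 fold changes of CERS2 were 0.02 (95% confidence interval -0.09 to 0.12) and -0.10 (-0.21 to 0.01).

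CERS6 had 35.1, 36.7 and 39.0 CPM with NS shRNA, 32.1, 31.0 and 28.4 CPM with shRNA #1, and 38.1, 41.5 and 36.7 CPM with shRNA #2. The shRNA #1 libraries were all below the controls and the shRNA #2 libraries mixed with them. CERS6 fell by 0.28 on the log2 scale with shRNA #1 (SE 0.07, adjusted p = 0.0052). With shRNA #2 its log2 fold change was 0.07 (95% confidence interval -0.09 to 0.23), and the ratio of shRNA #2 to shRNA #1 was 0.35 (SE 0.07, adjusted p = 0.00102).

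CERS5 had 32.1, 34.2 and 28.1 CPM with NS shRNA, 32.4, 31.1 and 33.8 CPM with shRNA #1, and 35.6, 35.5 and 41.4 CPM with shRNA #2. With shRNA #2 all libraries were above the controls, 1 of them by a wide margin. CERS5 rose by 0.26 on the log2 scale with shRNA #2 (SE 0.09, adjusted p = 0.0269), and its fold change with shRNA #1 was 0.04 (95% confidence interval -0.13 to 0.21). The rise with shRNA #2 was not past the threshold without replicate 3 of shRNA #2 (0.19, adjusted p = 0.0949), without replicate 3 of NS shRNA (0.18, adjusted p = 0.0865) or without replicate 1 of NS shRNA (0.27, adjusted p = 0.0532) for CERS5.

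Relative to CERS2 in the same library, CERS6 lay on opposite sides of the controls with the hairpins. The log2 ratio of CERS6 to CERS2 was -3.22 ± 0.05 (SD, n = 3) with NS shRNA, -3.52 ± 0.05 with shRNA #1 and -3.05 ± 0.04 with shRNA #2, and the 3 groups did not overlap. These are differences of -0.30 (SE 0.04) and 0.17 (SE 0.04) to NS shRNA, each at the smallest p of the exact permutation test, 0.1. The ratio of CERS5 to CERS2 was 0.36 (SE 0.14) higher with shRNA #2 without overlap. With shRNA #1 it differed from the controls by 0.03 (SE 0.12) with overlap, an exact permutation p of 0.9 and values from -0.078 to 0.11 when single libraries were left out.

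SGMS2 (chr4:107824563-107915047, plus strand, 7 exons), the sphingomyelin synthase that is also found at the plasma membrane, had the largest rise of the 10 genes. Its level was 75.1, 85.6 and 91.4 CPM with NS shRNA, 78.1, 78.2 and 73.4 CPM with shRNA #1, and 140, 138 and 133 CPM with shRNA #2. The shRNA #2 libraries stood apart from all other libraries, and the shRNA #1 libraries overlapped only the lowest control. SGMS2 rose by 0.72 on the log2 scale with shRNA #2 (SE 0.07, adjusted p = 1.16e-05), a level 64.2% higher. With shRNA #1 the log2 fold change of SGMS2 was -0.14 (95% confidence interval -0.31 to 0.03, adjusted p = 0.129), and it passed the threshold without replicate 1 of NS shRNA (-0.22, adjusted p = 0.0138). The ratio of shRNA #2 to shRNA #1, 0.84 (SE 0.07, adjusted p = 9.68e-07), was the largest between the hairpins among the 10 genes.

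SGMS1 (chr10:50305586-50625163, minus strand, 11 exons), the Golgi sphingomyelin synthase, had 67.7, 76.9 and 72.5 CPM with NS shRNA, 76.0, 76.2 and 73.3 CPM with shRNA #1, and 70.6, 71.4 and 69.1 CPM with shRNA #2. Both knockdown groups overlapped the controls. The log2 fold changes of SGMS1 were 0.05 (95% confidence interval -0.08 to 0.18) and -0.03 (-0.17 to 0.11).

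UGCG (chr9:111896814-111935369, plus strand, 9 exons), the glucosylceramide synthase, had 331, 345 and 343 CPM with NS shRNA, 346, 336 and 334 CPM with shRNA #1, and 357, 362 and 360 CPM with shRNA #2. The shRNA #2 libraries were above the controls by a small margin and the shRNA #1 libraries overlapped them. UGCG changed by -0.01 (95% confidence interval -0.11 to 0.08) with shRNA #1 and 0.09 (-0.02 to 0.19) with shRNA #2 on the log2 scale, and neither passed the test.

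**Figure D2:**
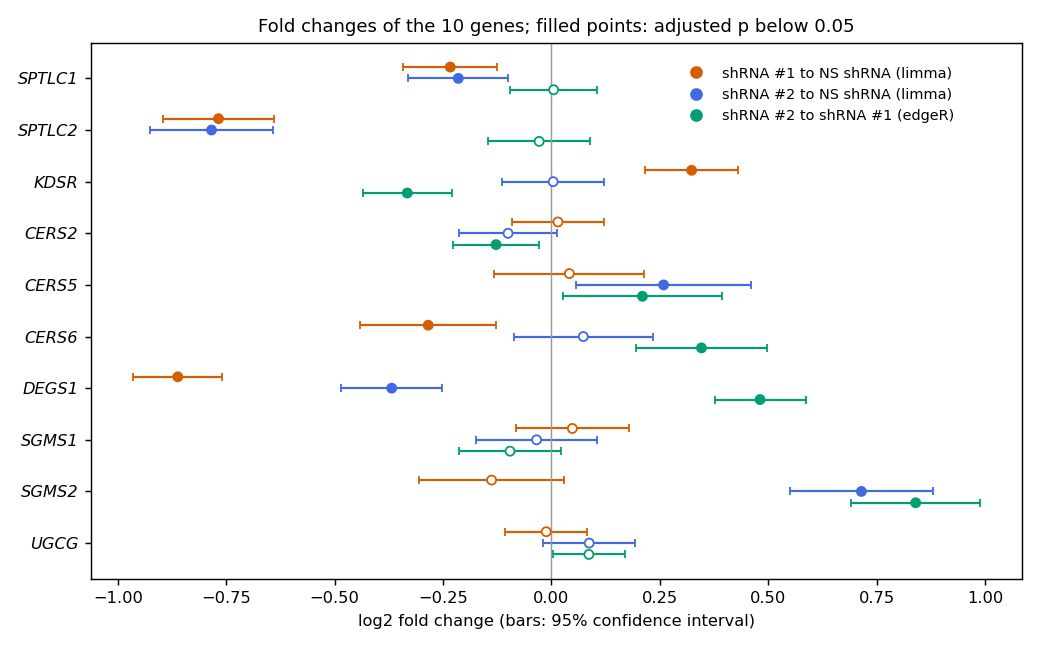
The log2 fold change of each of the 10 genes (horizontal axis) is drawn for shRNA #1 to NS shRNA, shRNA #2 to NS shRNA and shRNA #2 to shRNA #1, with 95% confidence intervals as bars and filled points where the adjusted p was below 0.05. SPTLC1 and SPTLC2 have nearly the same value with both hairpins, DEGS1 is lower with both and by more with shRNA #1, and SGMS2 is the point furthest to the right with shRNA #2, at 0.72.

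Compared with each other, the hairpins differed in 6 of the 10 genes, 4 higher and 2 lower with shRNA #2, beside 63.9% of the 14381 genes tested (31.4% higher, 32.5% lower). SGMS2, DEGS1, CERS6 and CERS5 were higher, and KDSR and CERS2 lower. The ratios of CERS2 (-0.13, SE 0.05, adjusted p = 0.0274) and CERS5 (0.21, SE 0.08, adjusted p = 0.0457) were closest to the threshold. The call of CERS2 was lost without replicate 1 (adjusted p = 0.125) or 2 (0.0555) of shRNA #1 and without replicate 1 (0.0885) or 3 (0.0883) of shRNA #2. That of CERS5 was lost without replicate 1 (0.0895) or 2 (0.147) of shRNA #1, replicate 3 (0.179) of shRNA #2 or replicate 1 (0.059) of NS shRNA. For SGMS1 the ratio was -0.10 (95% confidence interval -0.21 to 0.02) and for UGCG 0.09 (0.00 to 0.17), and neither passed after adjustment.

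At the branch point where ceramide is used, the RNA ratios of the enzymes' genes differed most from the controls with shRNA #2. Within a library, the log2 ratio of SGMS2 to SGMS1 was 0.21 ± 0.10 (SD, n = 3) with NS shRNA, 0.03 ± 0.02 with shRNA #1 and 0.96 ± 0.02 with shRNA #2. It was lower by 0.19 (SE 0.06) with shRNA #1, higher by 0.75 (SE 0.06) with shRNA #2, and the 3 groups did not overlap. The ratio of UGCG to SGMS2 was 2.02 ± 0.12 with NS shRNA, 2.15 ± 0.04 with shRNA #1 and 1.39 ± 0.04 with shRNA #2. That of UGCG to SGMS1 was 0.12 (SE 0.04) higher with shRNA #2 without overlap, and changed by -0.06 (SE 0.04) with shRNA #1, where the exact permutation p was 0.3. Across the 7 ratios and 3 comparisons, 21 tests in all, no p below 0.1 was possible, and none of these differences can pass a correction.

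**Figure D3:**
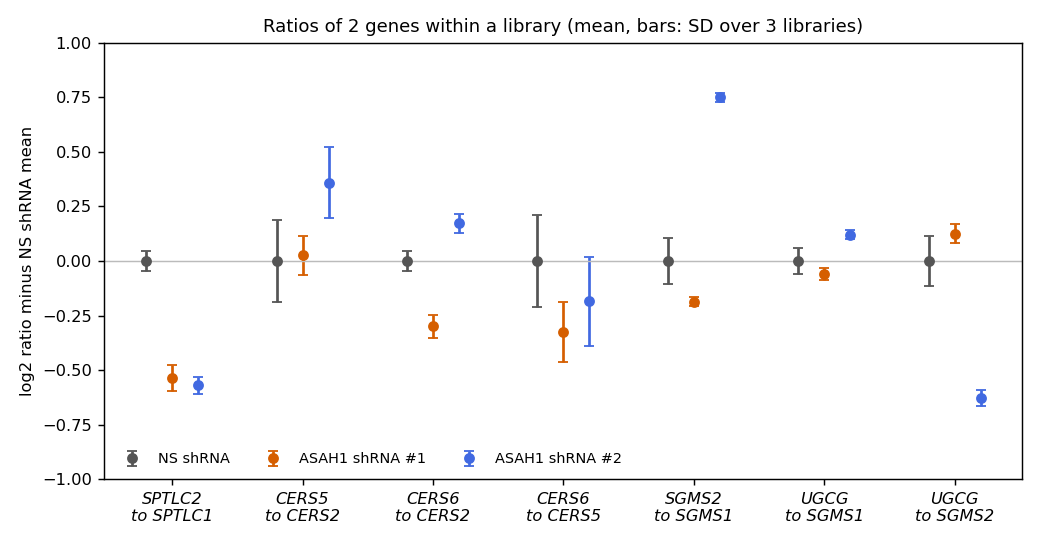
The log2 ratio of 2 genes within a library, minus its NS shRNA mean (vertical axis), is drawn as the mean of 3 libraries with the SD as the bar for NS shRNA, ASAH1 shRNA #1 and ASAH1 shRNA #2. SPTLC2 to SPTLC1 sits near -0.5 with both hairpins, while SGMS2 to SGMS1 sits at -0.19 with shRNA #1 and at 0.75 with shRNA #2.

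Levels can be compared between genes only per length. As CPM per kilobase of the canonical GENCODE transcript, the order with NS shRNA was CERS2 (149 ± 4.51, SD, n = 3), DEGS1 (126 ± 1.88), UGCG (85.8 ± 2.00), SPTLC1 (43.9 ± 1.18), KDSR (24.0 ± 0.817), SGMS1 (19.5 ± 1.24), SGMS2 (13.5 ± 1.32), CERS5 (12.5 ± 1.25), SPTLC2 (8.78 ± 0.485) and CERS6 (5.43 ± 0.289). Of neighbours in this order, the ranges of SGMS2 and CERS5 overlapped and all others were apart. CERS2, DEGS1 and UGCG were the highest 3 in all groups, but DEGS1 dropped from 126 to 69.5 ± 2.37 with shRNA #1, under UGCG (85.6 ± 1.61), and stayed above it with shRNA #2 (97.1 ± 4.47 against 90.8 ± 0.687). Per kilobase of all annotated exons of a gene, the highest 3 were the same, but DEGS1 (104 ± 1.56) came before CERS2 (74.4 ± 2.25) with NS shRNA, so the order inside the group depends on which transcripts are present.

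On the canonical scale, CERS2 made up 85.1% ± 0.930 (SD, n = 3) of the summed level of the 6 ceramide synthase genes with NS shRNA, 87.4% ± 0.546 with shRNA #1 and 82.3% ± 0.981 with shRNA #2. The groups did not overlap, and the same held per kilobase of all exons, at 84.4%, 87.1% and 81.7%. Each share also depends on the levels of the other genes in the sum. CERS4 held 4.21%, 2.42% and 4.68% in the same order of groups, and 3.66%, 2.12% and 4.07% per kilobase of all exons. On the canonical scale, CERS5 held 7.20%, 7.50% and 8.91%, and CERS6 held 3.11%, 2.59% and 3.39%, in the same order of groups. Per kilobase of all exons, CERS5 held 5.29%, 5.53% and 6.56% and CERS6 held 6.12%, 5.13% and 6.68%, so which of these genes had the higher share depends on the length used. SGMS2 was 40.9% ± 1.76 of the SGMS1 and SGMS2 sum with NS shRNA, 37.8% ± 0.336 with shRNA #1 and 53.7% ± 0.331 with shRNA #2. Per kilobase of all exons its share was 49.4%, 46.1% and 62.1%, so which of the sphingomyelin synthases leads in the controls depends on the length used, while the shift with shRNA #2 does not.

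**Figure D4:**
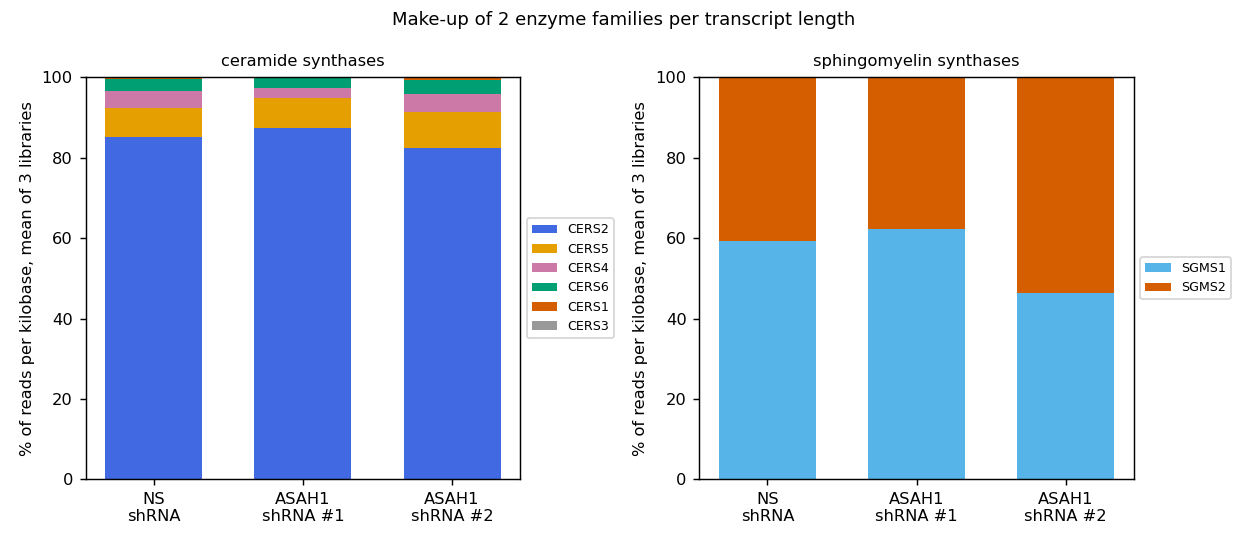
Stacked bars give each gene's percentage of the summed reads per kilobase of the canonical transcript (vertical axis), as the mean of 3 libraries in each group, for the ceramide synthases (left) and the sphingomyelin synthases (right). CERS2 fills over 82% of every bar on the left, and SGMS2 passes SGMS1 on the right only with shRNA #2, at 53.7%.

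Beyond the 10 genes, 36 other genes of the pathway were read from the same fits, and 30 of them passed the filter on low values (CERS3, DEGS2, ELOVL2, ELOVL4, SMPD3 and SPTSSB did not). With shRNA #1, 19 of the 30 were called, 4 higher and 15 lower, with a median log2 fold change of -0.21 where all tested genes had 0.00. With shRNA #2, 22 of the 30 were called, 10 higher and 12 lower, with a median of -0.04 beside 0.01 for all genes. These shares, 63.3% and 73.3%, stand beside the 66.1% and 66.9% of all genes given above. Between the hairpins 28 of the 30 were called, 14 in each direction, beside 63.9% of all tested genes (31.4% higher, 32.5% lower).

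Of 5 tested partners and regulators of serine palmitoyltransferase, 3 were called with each hairpin, a share under the 66.1% and 66.9% of all tested genes. SPTLC3, the alternative catalytic subunit, rose by 0.36 on the log2 scale with shRNA #1, from 705 ± 26.0 to 908 ± 40.4 normalized counts (SD, n = 3), while SPTLC2 fell in the same libraries. SPTSSA, a small activating subunit, fell by 0.47 with shRNA #1 and had a log2 fold change of 0.00 with shRNA #2. ORMDL3, an inhibitor of the complex, fell by 0.22 with shRNA #1 and rose by 0.51 with shRNA #2, and ORMDL2, of the same family, fell by 0.29 with shRNA #2. Of the 2 other ceramide synthases tested, CERS1 had 54.0 ± 9.57 normalized counts with NS shRNA and 16.3 ± 3.51 with shRNA #1, a log2 fold change of -1.68, and rose by 0.82 with shRNA #2, where its libraries overlapped the controls. The rise of CERS1 was not past the threshold without replicate 1 of shRNA #2 (adjusted p = 0.0739) or replicate 2 of NS shRNA (0.0548). CERS4 fell by 0.82 with shRNA #1 and changed by 0.10 (adjusted p = 0.252) with shRNA #2.

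Among 10 genes of ceramide transfer and onward steps, 6 were called with each hairpin, 2 higher and 4 lower in each comparison, a share under the 66.1% and 66.9% of all tested genes. CERT1, the protein that carries ceramide from the endoplasmic reticulum to the Golgi for sphingomyelin synthesis, fell by 0.25 with shRNA #1 and fell by 0.54 with shRNA #2. ST3GAL5, the sialyltransferase that starts the gangliosides, fell with both, from 839 ± 40.3 to 272 ± 14.4 normalized counts with shRNA #1 (log2 fold change -1.62) and from 907 ± 45.9 to 366 ± 32.5 with shRNA #2 (-1.31). CERK, the ceramide kinase, fell by 0.81 with shRNA #1 and rose by 0.20 with shRNA #2, the latter not past the threshold without replicate 1 of shRNA #2 (adjusted p = 0.0889) or replicate 1 of NS shRNA (0.0728). PLEKHA8, a glycolipid transfer protein, had the largest rise of this list with shRNA #2, 0.87, and GLTP, another, the largest with shRNA #1, 0.19, a call lost for GLTP without replicate 1 of shRNA #1 (adjusted p = 0.052). FA2H, the fatty acid hydroxylase, fell by 1.82 with shRNA #2 from a low level of 26.3 ± 3.92 normalized counts.

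SMPD1, the lysosomal acid sphingomyelinase, fell with both hairpins (-0.65 and -1.21). It was the only 1 of 3 tested sphingomyelinases called with shRNA #1, beside 66.1% of all tested genes. With shRNA #2, 2 of the 3 were called, both lower, beside 66.9% of all tested genes. SMPD4 fell with shRNA #2 (-0.31, adjusted p = 0.0027) and was not called with shRNA #1 (-0.09, adjusted p = 0.22). SMPD2 passed in neither comparison (0.17, adjusted p = 0.243, and -0.26, adjusted p = 0.150). With shRNA #2 its value ran from -0.39 to -0.11 when single libraries were left out, and it passed without replicate 3 of shRNA #2 (-0.39, adjusted p = 0.031) and was smallest in size without replicate 2. The enzymes of fatty acid elongation were called in 7 of 10 cases (1 higher, 6 lower) with shRNA #1, beside 66.1% of all tested genes. With shRNA #2 they were called in 10 of 10 cases (5 higher, 5 lower), beside 66.9% of all tested genes. Of these calls, that of HACD2 was close to the threshold (-0.59, adjusted p = 0.0434). Its shRNA #2 libraries overlapped the controls, which spread widely at 338 ± 129 normalized counts (SD, n = 3). ELOVL1, an elongase for very long chains, rose with both (0.54 and 0.17). The dehydratases HACD1 (-0.21 and -0.46) and HACD3 (-0.82 and -0.49) and the reductase TECR (-0.66 and -0.95) fell with both, as did ELOVL3 (-1.15 and -2.92), which had only 24.2 ± 7.64 normalized counts with NS shRNA. ELOVL6, which lengthens palmitate, and HSD17B12, the ketoacyl reductase of the cycle, fell with shRNA #1 (-0.65 and -0.19) and rose with shRNA #2 (0.44 and 0.44). With single libraries left out, HACD1 with shRNA #1 lost its call in 4 of 6 cases (adjusted p up to 0.0979, all but replicate 3 of NS shRNA and of shRNA #1), HSD17B12 with shRNA #1 without replicate 2 of NS shRNA (0.0542), and ELOVL1 with shRNA #2 without the same library (0.0705). ELOVL7 had the largest rise of this list with shRNA #2, 0.59.

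**Figure D5:**
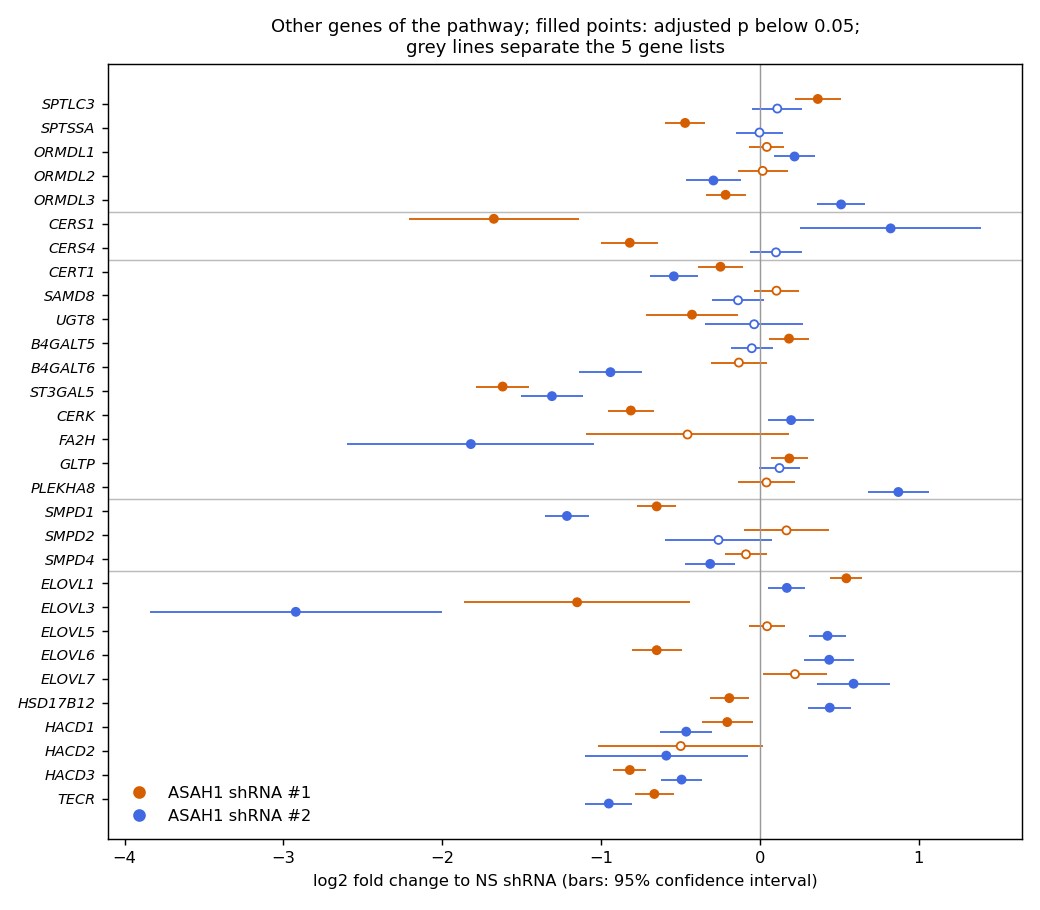
The log2 fold change to NS shRNA (horizontal axis) of the 30 tested other genes of the pathway is drawn for ASAH1 shRNA #1 and ASAH1 shRNA #2, with 95% confidence intervals as bars, filled points where the adjusted p was below 0.05 and grey lines between the 5 gene lists. CERS1, CERK, ELOVL6, HSD17B12 and ORMDL3 lie on opposite sides of 0 with the hairpins, and ST3GAL5, SMPD1, HACD3 and TECR lie to the left of it with both.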

How the data were processed

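RNA was sequenced in 9 libraries, 3 for each of NS shRNA, ASAH1 shRNA #1 and ASAH1 shRNA #2. The authors used Trimmomatic 0.36 for trimming, STAR 2.7.1a for alignment to hg38 and HTSeq for strand-aware counting on UCSC genes, and ran DESeq2 1.28 for each hairpin with the NS shRNA libraries; elsewhere their methods name Bowtie2 with RSEM and edgeR with TMM. The labels describe oligo-dT purification and the series' design text ribosomal RNA depletion, and which applies was not settled here. The deposited values are a signal, that is, reads per gene scaled by 1 size factor per library, for 26485 genes and 6 libraries in each of 2 tables. The authors' comparison columns (fold change, error, statistic and p-values) were not used. Of the per-sample columns, 0 stayed without a library. In 1 of the tables, 28 gene symbols appeared as dates and were taken from the same lines of the other table. CERT1 was listed under its older symbol.

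Dividing each value by the library's step gave whole reads, with 100% of nonzero values in the lower range within 0.02 of a whole number. Values with more reads were rounded without this check. The NS shRNA reads were the same in both tables, with 0 differences. Depth ran from 23806003 to 49659106 reads on genes, and that number of reads sets the counting error of each value. Replicates differed beyond sampling noise (chi-square per gene between 5.03 and 21.9). CPM (reads divided by the TMM effective size and multiplied by 1000000) share 1 scale over the 9 libraries. Each comparison with NS shRNA was fitted within its table by limma 3.58.1 with trended variances. The model used log2(value + 1) and genes averaging 10 or more, and tests were two-sided with Benjamini-Hochberg adjustment over all genes tested at 0.05. The hairpins were compared by the quasi-likelihood test of edgeR 4.0.16 with TMM on the reads of all 9 libraries, since the tables were normalized separately. R 4.3.3 and Python 3.11.15 with pandas 2.3.3, scipy 1.17.1 and matplotlib 3.10.9 were used. Gene positions and lengths are from GENCODE v44, and promoters from RefSeq (GRCh38.p14); the UCSC annotation was not used here. Simulated data with known changes were used to test the fits.

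All 10 genes are named, as are ASAH1 and the markers of the cell line. Of 5 lists of other pathway genes, those are named that passed with both hairpins or had the largest or smallest log2 fold change of a list. CERS4 and SMPD4, the other tested members of their lists, are named as well. HACD2 is named because its groups overlapped. The genes and lists were chosen with earlier results of these data known. Other settings tried were pseudocounts of 0.1 and 5, no minimum and a minimum mean of 50, limma with no trend, scaling by the upper quartile, edgeR and DESeq2 1.42.0 on the recovered reads, 1 fit of all 9 libraries, only the 6 knockdown libraries, the replicate number as a block, and each library left out in turn.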

Additional observations from a re-analysis of the deposited data

Results flagged for a closer look

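For 6 of the 10 genes the effect differed between the hairpins by the test of the difference itself, edgeR's quasi-likelihood test of shRNA #2 to shRNA #1. The log2 ratio was 0.84 for SGMS2, 0.48 for DEGS1, 0.35 for CERS6, 0.21 for CERS5, -0.33 for KDSR and -0.13 for CERS2. SGMS2 rose with shRNA #2 alone, KDSR rose and CERS6 fell with shRNA #1 alone, and DEGS1 fell with both by different amounts. Of all tested genes, 63.9% differed between the hairpins. The ASAH1 level also differed between the hairpins, and its part in these differences was not tested.

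Another 5 genes of the pathway fell with shRNA #1 and rose with shRNA #2, and differed between the hairpins by the same test. Of all tested genes, 33.3% fell with shRNA #1, 33.5% rose with shRNA #2 and 63.9% differed between the hairpins. The share of all tested genes that did all of these was not counted, so whether 5 is many cannot be said. The log2 ratios of the 5 genes, again for shRNA #2 over shRNA #1, were 2.58 for CERS1, 1.07 for ELOVL6, 1.00 for CERK, 0.72 for ORMDL3 and 0.62 for HSD17B12. CERS1 had the fewest reads of these genes.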

How the results depend on the processing

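SPTLC1, SPTLC2 and DEGS1 kept their direction and their call in both comparisons with NS shRNA under all 16 alternatives, as did KDSR and CERS6 with shRNA #1 and SGMS2 with shRNA #2. CERS5 with shRNA #2 lost its call under limma without the trend (adjusted p = 0.0658), upper quartile scaling (0.0565) and the replicate block (0.0674), so 1 gene in place of 2 was higher there, and between 1 and 2 were when single libraries were left out. CERS2 with shRNA #2 passed after upper quartile scaling (-0.15, adjusted p = 0.0298). Between the hairpins, 1 gene in place of 2 was lower with no filter and with the replicate block, where CERS2 had an adjusted p of 0.0674 and 0.0696, and between 1 and 2 when libraries were left out. CERS5 lost its call there with upper quartile factors (adjusted p = 0.185), a minimum mean of 50 (0.0548) and the replicate block (0.0862). SGMS1 (-0.17, adjusted p = 0.0148, upper quartile factors) and UGCG (0.10, adjusted p = 0.0267, DESeq2) gained one. Of the other pathway genes, 2 in place of 4 were higher with shRNA #1 under the replicate block, and between 2 and 6 when libraries were left out. With shRNA #1, HACD1 lost its call without the trend (adjusted p = 0.0628) and under the block (0.0934), and GLTP under the block (0.0624). With shRNA #2, upper quartile scaling and the block ended the calls of CERK (0.0557 and 0.0813) and ELOVL1 (0.0588 and 0.0903). The block lowered the calls over all genes from 9479 to 8237, from 9538 to 8526 and from 9188 to 8590. Deviations from the group mean of same-numbered libraries correlated between -0.50 and -0.23 for NS shRNA and shRNA #1. For NS shRNA and shRNA #2 the range was -0.60 to -0.13, so the numbers did not pair the controls with either hairpin. Differently numbered libraries correlated between -0.14 and 0.48 for NS shRNA and shRNA #1. For NS shRNA and shRNA #2 they correlated between -0.28 and 0.52. Variation shared across groups in another way was not tested. Between same-numbered libraries of the hairpins the range was 0.07 to 0.44. There replicate 1 of shRNA #1 correlated best with replicate 2 of shRNA #2 (0.18), so pairing of the hairpins by number was not settled.

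Values near 0 changed sign, among them the CERS5 to CERS2 ratio with shRNA #1 (from -0.078 to 0.11 with single libraries left out). KDSR with shRNA #2 was -0.041 after upper quartile scaling and SPTLC1 between the hairpins -0.070 with upper quartile factors and -0.0087 with a minimum mean of 50. When single libraries were left out, the values ran with shRNA #1 from -0.014 to 0.044 for CERS2, from -0.034 to 0.10 for CERS5, from -0.00041 to 0.091 for SGMS1, from -0.014 to 0.064 for ORMDL2 and from -0.032 to 0.096 for PLEKHA8. With shRNA #2 they ran from -0.011 to 0.033 for KDSR, from -0.084 to 0.011 for SGMS1 and from -0.052 to 0.036 for SPTSSA, and between the hairpins from -0.020 to 0.023 for SPTLC1. The causes were not tested. With 3 libraries a group, the intervals given bound what was detectable, and levels per length depend on the transcripts assumed.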
